A study of Sus scrofa with 6 samples.

Results

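The genes of the nuclear pore and of nuclear transport were followed in pig eggs from prepubertal and adult females. Members were the probe sets, the sets of short probes that each measure 1 transcript, whose single gene symbol in the platform annotation is a numbered nucleoporin (NUP), an importin alpha or beta (KPNA, KPNB, IPO, TNPO), an exportin (XPO, CSE1L), a gene of the Ran cycle (RAN, RANBP, RANGAP, RCC1, NUTF2), an mRNA export receptor (NXF, NXT) or SEH1L, SEC13, RAE1, AAAS, TPR or NDC1. The rule found 73 probe sets of 37 genes, among 10069 probe sets with a single symbol and 23999 non-control probe sets in all. Of the 37 genes, 13 encode nucleoporins. The other 24 are counted here as soluble transport factors, and they include RANBP10, a scaffold protein named for Ran binding.

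Prepubertal oocytes (gilts, labelled developmentally incompetent) and adult oocytes (sows, labelled developmentally competent) were hybridized to 3 Affymetrix porcine arrays each, labelled as biological replicates. All oocytes were aspirated from follicles of 2 to 6 mm, matured in culture for 42 to 44 h, stripped of cumulus cells and checked for a polar body, so every array holds metaphase II eggs matured in vitro. The labels give neither breed, exact age nor the number of oocytes or animals per array, so the spread behind each p-value is that between arrays and may be partly technical. The comparison asks which stored mRNAs differ between eggs of prepubertal and adult females. Capacity to develop comes with the group label and cannot be told apart from the maturity of the donor here.

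The nuclear pore is a ring-shaped channel through the nuclear envelope, built from nucleoporins arranged as outer and inner rings, membrane anchors, a central channel, cytoplasmic filaments and a nuclear basket. Importins carry proteins with a nuclear localization signal inward and exportins carry cargo outward, while the small GTPase Ran, bound to GTP in the nucleus and to GDP outside it, gives the traffic its direction. A metaphase II egg has no nuclear envelope. Its stored pore and importin transcripts and proteins serve the pronuclei that form after fertilization, and in mitosis and meiosis Ran and several nucleoporins also act at the spindle and kinetochores.

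The arrays were not at one level as deposited. The mean signal after trimming 2% from each end was 131, 105 and 113 in prepubertal replicates 1, 2 and 3, against 160, 121 and 141 in adult replicates 1, 2 and 3 (exact permutation p = 0.2, 2-sided, with 0.1 the smallest p that 3 against 3 arrays can give). Over all 12000 tested probe sets, log2 differences (prepubertal minus adult) had a median of −0.20, and of −0.01 after quantile normalization, which gives the arrays one distribution. Every tested member is therefore given on both scales. Oocyte identity was visible in 6 of the 7 oocyte marker genes on the array that passed the filter, ZP2, ZP3, ZP4, GDF9, BMP15 and NPM2. Of 16 cumulus and granulosa marker genes, 7 passed it (FST, INHBA, INHA, VCAN, NR5A1, HSD3B1 and LHCGR), with the highest group means in FST, 92.0 in prepubertal and 128 in adult oocytes, and INHBA, 100.3 and 126. The summed signal over all 16 genes was 373 to 497 on prepubertal and 434 to 559 on adult arrays. PTX3, TNFAIP6, PTGS2, FSHR, STAR, CYP11A1 and CYP19A1, which mark the same cells, did not pass. Summed oocyte markers ran from 4637 to 5594 on prepubertal and from 4957 to 5614 on adult arrays. The part of cumulus RNA in the member signals was not tested.

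None of the nuclear pore and transport genes passed an adjusted p of 0.05 between the groups. Of the 73 probe sets, 45 probe sets of 31 genes were bright enough to test, with a mean log2(signal + 16) at or above the median of all non-control probe sets, and limma called 0 of them (0.475% of all tested probe sets passed). Without adjustment, 7 member probe sets had a p under 0.05, all 7 with lower values in prepubertal oocytes, or 15.6% of members where 14.7% of all tested probe sets had such a p and 13.6% had one with lower values. After quantile normalization, 0 passed (0.117% of all tested probe sets did), and 5 had an unadjusted p under 0.05, 3 with lower and 2 with higher values, or 11.1% where the background was 10.9% (5.81% lower and 5.05% higher). The members' shares lie near the background in both settings.

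The tested members' median log2 difference was −0.18 as deposited, beside −0.20 for all tested probe sets, and 0.01 after quantile normalization, beside −0.01. Values were lower in prepubertal oocytes for 38 of the 45 as deposited (84.4%, against 74.8% of all tested probe sets) and for 22 of the 45 after quantile normalization (48.9%, against 51.1%). The 22 include KPNA7, whose difference after quantile normalization is 0.00 apart from rounding. A change of sign with the scale was counted for 17 members, KPNA7 among them for its value of 0.00. Groups did not overlap for 10 members as deposited (22.2%, against 18.9% of all tested probe sets), 9 of them lower and 1 higher in prepubertal oocytes (17.1% and 1.81% of all tested probe sets). After quantile normalization they did not overlap for 8 members (17.8%, against 16.3%), 5 lower and 3 higher (8.77% and 7.54%). On both scales the lower ones include RANBP6, a probe set that passed the filter only through its adult values. The 95% interval of the difference lay within a log2 change of 1 either way for 40 of 45 members and within 0.5 for 3 as deposited, and for 42 and 20 of 45 after quantile normalization. Oocyte number and RNA per oocyte cannot be told apart in these samples.

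**Figure D1:**
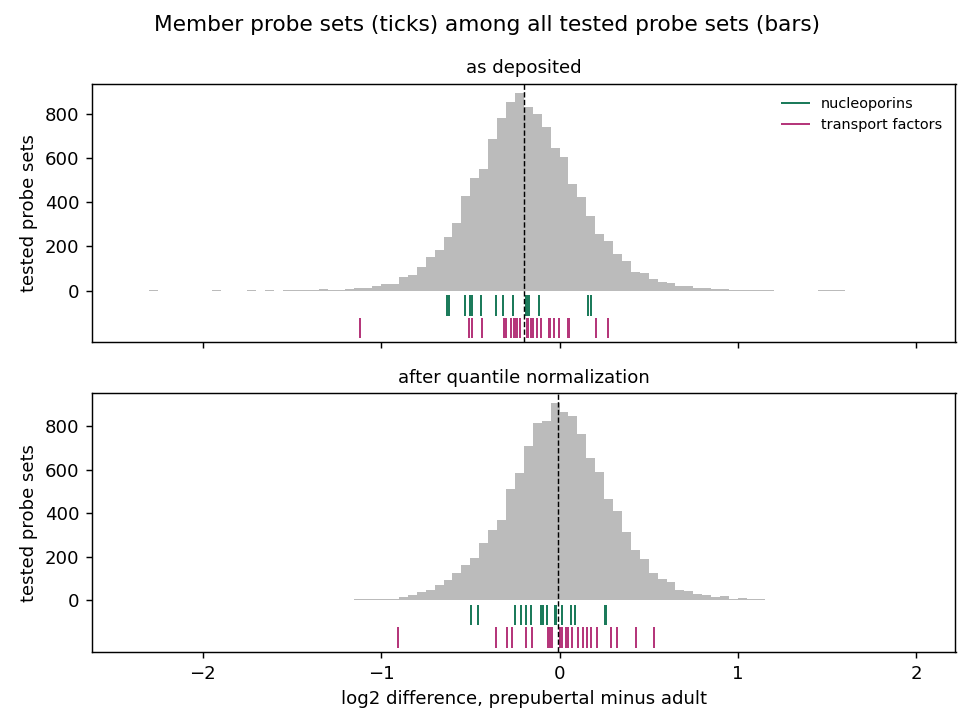
Distribution of the log2 difference (x axis, prepubertal minus adult) over all 12000 tested probe sets (bars, number of probe sets), as deposited above and after quantile normalization below, with dashed lines at the medians, −0.20 and −0.01. Ticks mark the tested nucleoporin and transport factor probe sets; 1 transport factor tick, RANBP1 at −1.12 and −0.91, stands left of the other members in both panels.

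The importin alpha genes KPNA1 to KPNA7 encode adaptors that bind the nuclear localization signal of a cargo and hand it to importin beta. KPNA7 is the importin alpha of oocytes and early embryos in pigs, cattle and mice. Its signal was 15053, 12969.9 and 14264 in prepubertal replicates 1, 2 and 3, against 14804, 14354 and 13969.8 in adult replicates 1, 2 and 3. The lowest and the highest value both belonged to prepubertal arrays, and the adult values lay between them. The group means were 14096 ± 1052 in prepubertal and 14376 ± 417 in adult oocytes (n = 3 each, ± SD), a log2 difference of −0.03 ± 0.11 (SE; 95% interval −0.26 to 0.20; limma adjusted p = 0.917). Quantile normalization gave both groups the same 3 values, because 1, 2 or 3 probe sets were brighter than KPNA7 on the arrays of each group, so its difference of 0.00 on that scale is set by the procedure. KPNA7 stood at 82.1% to 88.2% of the highest signal on the prepubertal arrays and at 94.4% to 96.6% of it on the adult arrays, which places this probe set near the top of the measured scale, and saturation there was not tested.

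KPNA2, the importin alpha tied to proliferating and pluripotent cells, had a probe set (Ssc.11668.1.A1_at) with 9908, 8396 and 9718 in prepubertal and 9613, 9268 and 10286 in adult oocytes. The groups overlapped, with a log2 difference of −0.06 ± 0.12 (95% interval −0.32 to 0.19; adjusted p = 0.847), and of 0.01 after quantile normalization. A dimmer KPNA2 probe set (Ssc.15824.1.S1_at) had 352, 131 and 148 in prepubertal and 285, 143 and 153 in adult oocytes, where replicate 1 was the highest of its group in both. Its log2 difference was 0.05 ± 0.31 (adjusted p = 0.963), and 0.29 after quantile normalization.

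KPNA1 and KPNA3 encode broadly expressed importins alpha, and most of their probe sets were under the filter. KPNA1 was tested by 1 of 4 probe sets, with 28.5, 26.4 and 34.3 in prepubertal and 65.4, 33.8 and 48.8 in adult oocytes, a log2 difference of −0.49 ± 0.26 (adjusted p = 0.376; −0.36 after quantile normalization). Adult replicate 2 lay below the highest prepubertal value as deposited, and just above it after quantile normalization, where the groups did not overlap. KPNA3 was tested by 1 of 3 probe sets, at 24.8 ± 5.73 in prepubertal and 20.1 ± 10.1 in adult oocytes (log2 difference 0.20 ± 0.30, adjusted p = 0.777; 0.32 after quantile normalization). The other 3 KPNA1 and 2 KPNA3 probe sets and both KPNA5 probe sets stayed under the filter, with group means between 2.24 and 17.2 in prepubertal and between 4.19 and 8.76 in adult oocytes. A low signal of this kind can come from the transcript or from the probes, so it gives no order of levels between genes.

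The Ran cycle supplies the direction of transport. RAN itself was represented by 9 probe sets, of which 5 were tested. The probe set Ssc.13909.1.A1_at had 5855, 5386 and 7437 in prepubertal and 6342, 5742 and 6491 in adult oocytes, with a 95% interval of the log2 difference from −0.30 to 0.30 (adjusted p = 0.994). Prepubertal replicate 3 was the highest and prepubertal replicate 2 the lowest of the 6 arrays. Ssc.13764.1.S1_at had 2063, 1987 and 2185 in prepubertal and 2448, 2061 and 2487 in adult oocytes (−0.16 ± 0.17, adjusted p = 0.686), and Ssc.24239.1.S1_at had means of 759.6 ± 218 and 820.3 ± 168 (−0.13 ± 0.23, adjusted p = 0.826). These 3 brighter RAN probe sets had higher prepubertal values after quantile normalization, by 0.17, 0.10 and 0.15 on the log2 scale.

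The dimmer RAN probe sets did not follow one direction. Ssc.15594.2.S1_at had 75.1, 59.5 and 63.0 in prepubertal and 52.9, 45.4 and 57.1 in adult oocytes, higher in every prepubertal array, with a log2 difference of 0.27 ± 0.23 (adjusted p = 0.601; 0.43 and 0.438 after quantile normalization). Ssc.15594.3.S1_at had 24.3, 56.6 and 95.7 in prepubertal and 68.3, 79.3 and 52.6 in adult oocytes (−0.25 ± 0.29, adjusted p = 0.717; −0.06 after quantile normalization), and its prepubertal values spread on both sides of the adult ones. The other 4 RAN probe sets were under the filter, with group means up to 17.6 in prepubertal and 15.6 in adult oocytes.

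RANBP1, which binds Ran bound to GTP and helps RANGAP1 switch Ran off on the cytoplasmic side, had the largest difference of all members. Its probe set Ssc.13040.1.A1_at had 122, 70.2 and 77.3 in prepubertal replicates 1, 2 and 3, against 301, 154 and 195 in adult replicates 1, 2 and 3. Every prepubertal value lay below every adult value, and replicate 1 was the highest in both groups. The means were 90.0 ± 28.4 in prepubertal and 217 ± 75.9 in adult oocytes (n = 3 each, ± SD). On the log2(signal + 16) scale, which understates the fold of dim probe sets, the difference was −1.12 ± 0.26 (SE; 95% interval −1.66 to −0.57), or 2.17-fold lower values. Its limma p was 0.000324 and its adjusted p 0.0626, just short of the threshold, and after quantile normalization the log2 difference was −0.91 with an adjusted p of 0.11. RANBP1 had lower prepubertal values in all 22 alternative fits, but groups without overlap on either scale left little room for a change of sign. It passed the threshold in 6 of these fits, where from 0.542% to 10.5% of all tested probe sets passed. Prepubertal replicate 1 held the highest of the 3 prepubertal values, and without it RANBP1 passed, with a log2 difference of −1.33 (adjusted p = 0.00193) and −1.06 after quantile normalization (adjusted p = 0.027), in fits where 5.14% and 1.62% of all tested probe sets passed. Over the tested probe sets, prepubertal replicate 1 correlated at 0.975 to 0.976 with the adult arrays. Its correlation was 0.968 with prepubertal replicate 2 and 0.971 with prepubertal replicate 3. Over each array left out in turn, the adjusted p of RANBP1 ran from 0.00193 to 0.383 as deposited. After quantile normalization this adjusted p ran from 0.027 to 0.396.

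The second RANBP1 probe set (Ssc.6182.1.A1_at) was dim and did not repeat this, with 19.97, 14.4 and 38.4 in prepubertal and 34.2, 17.5 and 35.2 in adult oocytes (−0.18 ± 0.30, 95% interval −0.79 to 0.44, adjusted p = 0.806; −0.06 after quantile normalization). The intervals of the 2 RANBP1 probe sets overlap. RANBP3, a cofactor of nuclear export, was tested by 1 of 6 probe sets, with 11.4, 28.9 and 69.0 in prepubertal and 59.1, 44.8 and 40.6 in adult oocytes (−0.44 ± 0.32, adjusted p = 0.532; −0.29 after quantile normalization), and prepubertal replicate 3 exceeded all adult arrays. NUTF2, the carrier that returns Ran bound to GDP to the nucleus, had 245, 193 and 175 in prepubertal and 262, 199 and 239 in adult oocytes, which overlapped (−0.18 ± 0.23, adjusted p = 0.738; 0.07 after quantile normalization). The RANGAP1 probe set was under the filter, with means of 3.28 and 3.36. RANBP10, a scaffold protein named for Ran binding, had 59.8 ± 21.3 in prepubertal and 66.3 ± 11.2 in adult oocytes (−0.15 ± 0.25, adjusted p = 0.809; 0.01 after quantile normalization).

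**Figure D2:**
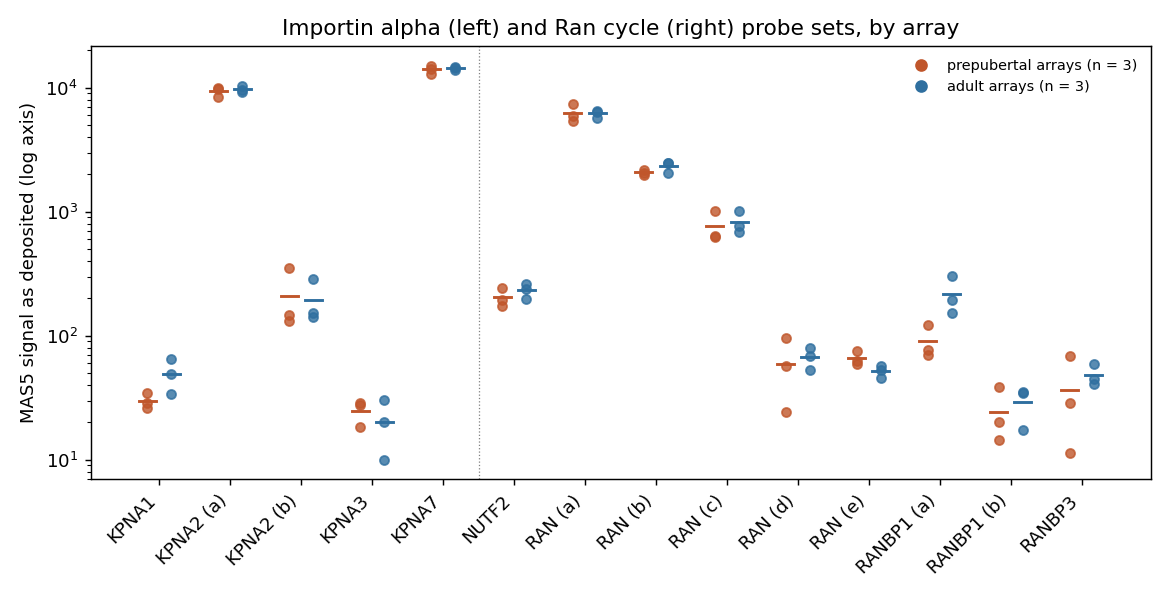
MAS5 signal as deposited (log axis) on each array for the tested importin alpha probe sets (left of the dotted line) and Ran cycle probe sets (right of it), with prepubertal arrays left of adult arrays and a bar at each group's mean, n = 3 each. Letters order a gene's probe sets by mean log2 signal, (a) being the brightest; KPNA7, KPNA2 (a) and RAN (a) overlap between the groups, and RANBP1 (a) does not.

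The outer ring, or Y complex, is the scaffold on which pores assemble, and part of it moves to kinetochores during division. All 8 of its tested probe sets, from 4 genes, had lower prepubertal values as deposited (median log2 difference −0.29), as did 74.8% of all tested probe sets. After quantile normalization 7 of 8 did (median −0.09), beside 51.1% of all. NUP133 and NUP85 gave 3 of the 8 each. NUP133, a Y complex subunit needed for pore assembly, stood at the low end with each of its probe sets. The probe set Ssc.23133.1.A1_at had 2313, 1735 and 1844 in prepubertal and 3452, 2418 and 2695 in adult oocytes. The prepubertal arrays all lay below the adult arrays, also after quantile normalization. The log2 difference was −0.53 ± 0.18 (95% interval −0.91 to −0.15), 1.45-fold lower values on the log2(signal + 16) scale, with a limma p of 0.00819 and an adjusted p of 0.203, and −0.25 (adjusted p = 0.388) after quantile normalization. Without prepubertal replicate 1 its difference was −0.65 and its adjusted p 0.0329 as deposited, in the fit where 5.14% of all tested probe sets passed. Over each array left out in turn, the adjusted p of this NUP133 probe set ran from 0.0329 to 0.626 as deposited and from 0.243 to 0.678 after quantile normalization.

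The second NUP133 probe set (Ssc.12300.1.A1_at) had 78.9, 45.2 and 65.6 in prepubertal and 139, 98.1 and 83.0 in adult oocytes, without overlap as deposited (−0.63 ± 0.25, adjusted p = 0.258). After quantile normalization its groups overlapped (−0.46). The third (Ssc.12300.3.A1_at) had 52.4, 20.1 and 38.3 in prepubertal and 117, 51.7 and 37.9 in adult oocytes, where adult replicates 2 and 3 lay among the prepubertal arrays (−0.62 ± 0.31, adjusted p = 0.352; −0.50 after quantile normalization). The fourth was under the filter, with means of 6.67 and 15.7. All 4 NUP133 probe sets thus had lower prepubertal values, but they read the same RNA samples and are not replicates of each other, and 0 of them passed.

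The other Y complex genes stood near the shift of all probe sets. NUP85 had 4675, 3798 and 4055 in prepubertal and 4954, 4705 and 5295 in adult oocytes for its probe set Ssc.8937.1.A1_at, with no overlap (−0.26 ± 0.15, adjusted p = 0.42), and −0.02 after quantile normalization. Its other tested probe sets had log2 differences of −0.31 and −0.18 (−0.07 and −0.10 after quantile normalization). NUP37 had 2615, 2084 and 2316 in prepubertal and 3137, 2345 and 2539 in adult oocytes, overlapping as deposited (−0.19 ± 0.17, adjusted p = 0.64), but higher in every prepubertal array after quantile normalization (0.09, adjusted p = 0.777). SEC13, which is shared with the COPII coat of secretory vesicles, had 68.7 ± 23.4 in prepubertal and 79.6 ± 24.3 in adult oocytes (−0.18 ± 0.26, adjusted p = 0.779; −0.02 after quantile normalization).

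Inner ring and membrane nucleoporins showed overlapping groups. NUP93, the linker that holds the inner ring together, had 641, 498 and 588 in prepubertal and 1014, 631 and 753 in adult oocytes. Adult replicate 1 was well above the other 5 arrays and adult replicate 2 lay below prepubertal replicate 1 (−0.44 ± 0.22, adjusted p = 0.358; −0.16 after quantile normalization). NUP155, an inner ring scaffold protein, had 2958, 1844 and 2776 in prepubertal and 3189, 2743 and 2994 in adult oocytes (−0.26 ± 0.18, adjusted p = 0.515; 0.02 after quantile normalization), with prepubertal replicate 2 alone clearly low. A dim NUP155 probe set had a log2 difference of 0.16 (0.26 after quantile normalization). NUP210, a membrane protein of the pore, had 44.6, 86.0 and 58.6 in prepubertal and 72.4, 62.7 and 67.9 in adult oocytes (−0.11 ± 0.24, adjusted p = 0.853; 0.09 after quantile normalization).

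The channel and filament nucleoporins carry or anchor the repeats that transport receptors bind. NUP54, of the central channel, had 564, 463 and 516 in prepubertal and 1002, 549.9 and 710.0 in adult oocytes (−0.50 ± 0.23, adjusted p = 0.321; −0.22 after quantile normalization), and adult replicate 2 lay just below prepubertal replicate 1. NUP88, of the cytoplasmic face, had 1089, 1101 and 983 in prepubertal and 1919.7, 1299 and 1323 in adult oocytes, without overlap as deposited (−0.49 ± 0.20, adjusted p = 0.271), but overlapping after quantile normalization (−0.19). In NUP54 and NUP88, as in NUP93, the highest of the 6 values came from adult replicate 1, the array with the highest overall signal.

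RAE1, an mRNA export factor that also acts at the spindle and in the mitotic checkpoint, had 3009.6, 2676 and 2624 in prepubertal and 4357, 3426 and 2995 in adult oocytes (−0.36 ± 0.17, adjusted p = 0.329; −0.09 after quantile normalization). Only adult replicate 3 fell among the prepubertal values. AAAS, which encodes the cytoplasmic nucleoporin aladin, was dim, at 19.6 ± 2.76 in prepubertal and 16.1 ± 7.74 in adult oocytes (0.18 ± 0.30, adjusted p = 0.816; 0.26 after quantile normalization), the probe set just inside the filter. Of the nuclear basket, TPR had 143, 128 and 110.2 in prepubertal and 167, 118 and 152 in adult oocytes by 1 tested probe set of 3 (−0.17 ± 0.23, adjusted p = 0.754; 0.07 after quantile normalization), and NUP50 was under the filter.

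**Figure D3:**
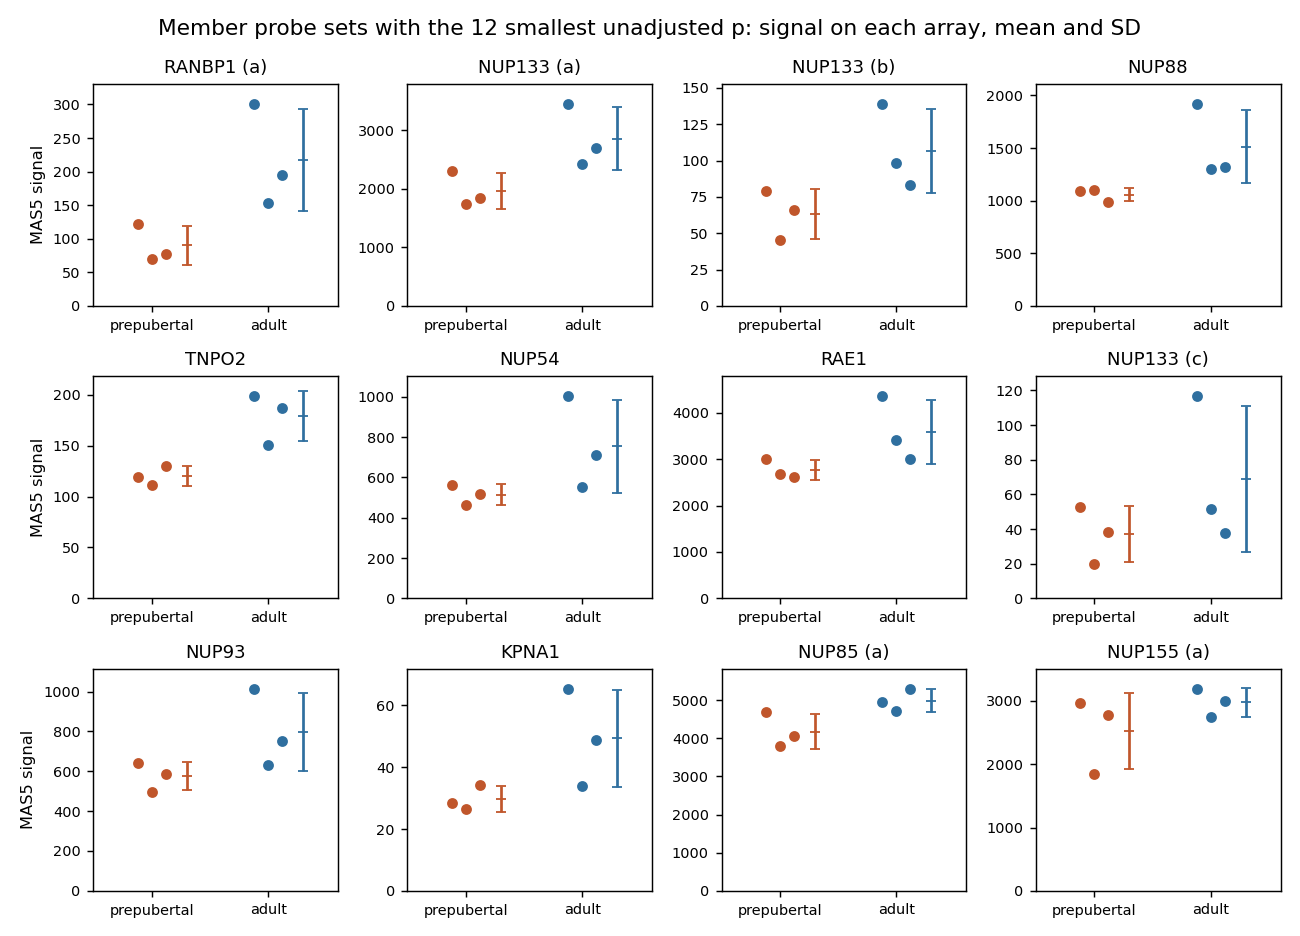
MAS5 signal as deposited on each array for the member probe sets with the 12 smallest unadjusted p, prepubertal left and adult right, with the group mean and SD (n = 3 each) beside the points; every axis starts at 0. RANBP1 (a), NUP133 (a), NUP133 (b), NUP88, TNPO2 and NUP85 (a) show no overlap between groups, and adult replicate 1, the leftmost adult point, is the highest in most panels.

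The nucleoporins taken as a group had 17 tested probe sets, whose log2 differences had a median of −0.26 (−0.07 after quantile normalization). The soluble transport factors, with RANBP10 counted among them, had 28, with medians of −0.16 and 0.04. The difference between the 2 groups of genes was not tested, and 0 members of either passed. An unadjusted p under 0.05 was found for 5 nucleoporin (29.4%) and 2 transport factor probe sets (7.14%) as deposited, beside 14.7% of all tested probe sets. After quantile normalization these counts were 2 (11.8%) and 3 (10.7%), beside 10.9% of all.

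Importin beta and its relatives carry cargo through the channel. All 6 tested probe sets, from 5 genes and with RANBP6 past the filter only by its adult values, had lower prepubertal values as deposited (median −0.27), as did 74.8% of all tested probe sets. After quantile normalization 4 of 6 did (median −0.05), beside 51.1% of all. TNPO2, a transportin that imports RNA-binding proteins, had 119, 111 and 131 in prepubertal and 199, 151 and 187 in adult oocytes, without overlap on either scale (−0.51 ± 0.23, adjusted p = 0.305; −0.27 after quantile normalization, adjusted p = 0.575). KPNB1, importin beta itself, had 165, 153 and 152 in prepubertal and 208, 169 and 218 in adult oocytes. The groups did not overlap as deposited, with a log2 difference of −0.30 ± 0.22 (adjusted p = 0.542), and overlapped after quantile normalization (−0.05). IPO11 had log2 differences of −0.26 and −0.01 by its 2 probe sets, TNPO3, the importer of SR splicing factors, had −0.10, and RANBP6, a relative of importin 5, had −0.27 by 1 dim probe set, with the other under the filter. After quantile normalization IPO11 had −0.04 and 0.13, TNPO3 0.05 and RANBP6 −0.19. The IPO5 probe set was under the filter, at 3.49 ± 3.06 in prepubertal and 10.9 ± 3.87 in adult oocytes.

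Among the exportins, XPO7, an exportin with broad cargo that also imports some proteins, was measured by 2 probe sets. Ssc.2144.1.S1_at had 137, 195 and 177 in prepubertal and 171, 111 and 133 in adult oocytes, a log2 difference of 0.27 ± 0.24 (adjusted p = 0.619), and of 0.53 after quantile normalization (adjusted p = 0.373), where no prepubertal value was below an adult one. Ssc.7490.1.A1_at had 205, 203 and 165 in prepubertal and 205, 227 and 241 in adult oocytes (−0.22 ± 0.22, adjusted p = 0.676; 0.03 after quantile normalization). As deposited the XPO7 probe sets thus differ in sign with overlapping intervals, and after quantile normalization both have higher prepubertal values. XPOT, the exportin of transfer RNA, had 1079.6, 802 and 954 in prepubertal and 1569, 954 and 912 in adult oocytes (−0.24 ± 0.22, adjusted p = 0.644; 0.04 after quantile normalization), with only adult replicate 1 standing apart, and a second probe set had −0.05 (0.21 after quantile normalization).

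XPO5, which exports microRNA precursors, had 53.7 ± 13.1 in prepubertal and 69.9 ± 10.9 in adult oocytes (−0.31 ± 0.24, adjusted p = 0.553; −0.15 after quantile normalization). CSE1L, which returns importin alpha to the cytoplasm, had 85.4, 92.5 and 62.5 in prepubertal and 92.3, 73.3 and 106 in adult oocytes, which overlapped (−0.15 ± 0.23, adjusted p = 0.788; 0.04 after quantile normalization). Both probe sets of XPO1, the main exportin of proteins with a nuclear export signal, were under the filter, with means up to 6.37 in prepubertal and 4.25 in adult oocytes. Of the mRNA export receptor, NXF1 had 104, 145 and 147 in prepubertal and 148, 113 and 117 in adult oocytes (0.05 ± 0.23, adjusted p = 0.94; 0.29 after quantile normalization), and its partner NXT1 was under the filter.

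**Figure D4:**
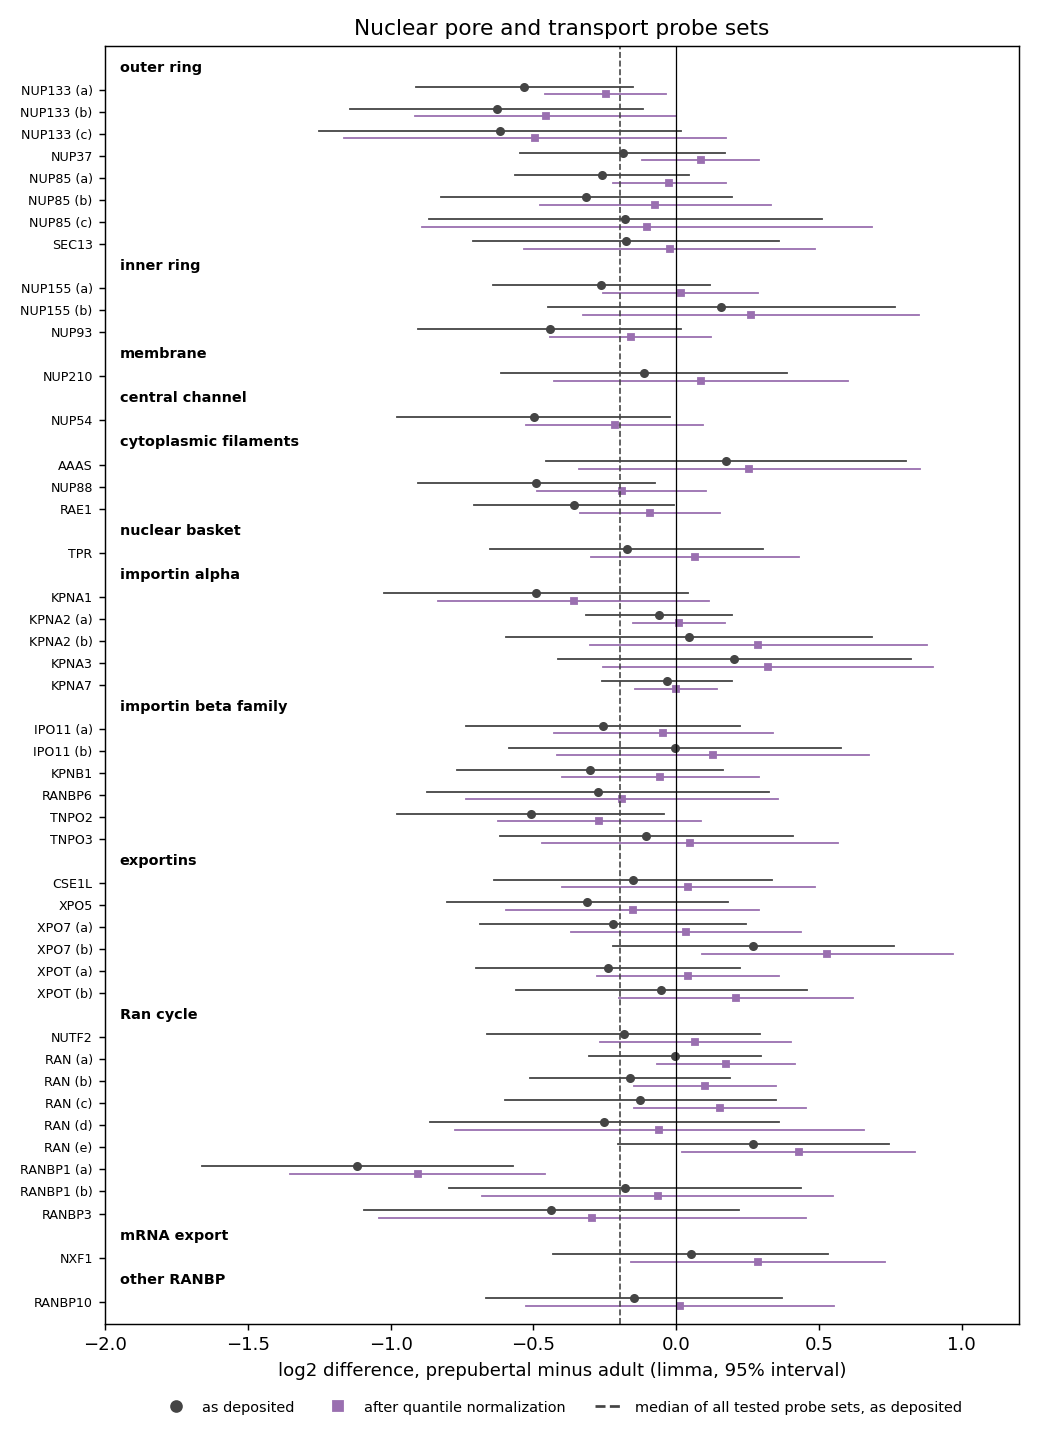
Log2 difference (x axis, prepubertal minus adult) with its 95% limma interval for the 45 tested member probe sets, grouped by role down the page, as deposited (circles) and after quantile normalization (squares), with the median of all tested probe sets, −0.20, as a dashed line. Most circles lie left of 0 and most squares near 0. The intervals of RANBP1 (a), NUP133 (a) and NUP133 (b) lie left of 0 on both scales. Those of XPO7 (b) and RAN (e) lie right of 0 after quantile normalization. The intervals are not adjusted for the number of tests, and no member passed an adjusted p of 0.05 on either scale.

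In all, 28 member probe sets of 15 genes were under the filter, with group means between 1.57 and 17.6, and 6 genes (KPNA5, XPO1, IPO5, NUP50, NXT1 and RANGAP1) had no tested probe set. The filter took the mean over all arrays. Still, 2 tested probe sets passed it only through their higher group, RANBP6 (mean log2 value 4.97 in prepubertal and 5.24 in adult oocytes) and AAAS (5.15 and 4.98). At its edge, AAAS was tested with a mean log2 value of 5.06 and a RAN probe set was not, with 4.95.

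Related genes that the rule does not match gave the same count. They were genes of mRNA export, the nuclear lamina and the nuclear envelope, and also SUMO2, SUMO3, SENP2, NMD3, PHAX, SNUPN and RANGRF. Of 37 probe sets of 26 genes, 23 probe sets of 21 genes were tested and 0 passed in either setting, and their log2 differences had a median of −0.17 (0.03 after quantile normalization). An unadjusted limma p under 0.05 was found for 1 of the 23 in each setting (4.35%, beside 14.7% of all tested probe sets as deposited and 10.9% after quantile normalization). As deposited this was LMNB1, the B-type lamin of the nuclear lamina, with 320.4, 335 and 430.2 in prepubertal and 535, 435 and 679.5 in adult oocytes. The groups lay just apart (−0.57 ± 0.23, adjusted p = 0.267; −0.29 after quantile normalization). DDX39A, an RNA helicase of mRNA export, had 378 ± 43.0 in prepubertal and 528 ± 142 in adult oocytes (−0.44 ± 0.23, adjusted p = 0.376; −0.16 after quantile normalization). THOC5, of the THO complex that couples transcription to export, had 27.5 ± 7.80 and 44.3 ± 11.6 (−0.47 ± 0.26, adjusted p = 0.412; −0.35 after quantile normalization). CHTOP, an export adaptor, had higher prepubertal values, 54.2 ± 12.1 against 37.8 ± 8.77 (0.38 ± 0.25, adjusted p = 0.48), and was the one with an unadjusted p under 0.05 after quantile normalization (0.54, adjusted p = 0.455).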

How the data were processed

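The authors deposited 1 table of MAS5 signal values for 24123 probe sets and 6 arrays, on a linear scale; MAS5 is named in the submitters' processing notes, without version or scaling target. The labels' protocols state bead capture of poly(A) RNA and amplification in 2 cycles, so the signal may also depend on poly(A) tail length. 0 value columns lacked a sample. From the deposited signal, log2(signal + 16) was computed, which understates differences of dim genes, 124 control probe sets were left out, and probe sets with a mean log2 value at or above the median were tested (12000). The group difference, prepubertal minus adult, was fitted with lmFit and trended eBayes of limma 3.58.1 (R 4.3.3), and its 2-sided p-values were adjusted by Benjamini-Hochberg over the tested probe sets (threshold 0.05). Every adjusted p is limma's, and the fit was repeated after quantile normalization. Data were simulated with independent normal noise at each probe set's own SD, 200 of 12000 probe sets changed and no shift between arrays. There the fit recovered 32.8% of log2 changes of 1 and 87.1% of log2 changes of 2. Under those settings a member with a change of the smaller size would often not pass. The real arrays were not at one level, so their rates may differ. The number of arrays limits the precision.

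The annotation gave 1 symbol to 10069 probe sets and several to 198, and 13732 are unnamed here; the symbols of all 73 members matched RefSeq by Entrez identifier. No coordinates are given, since the values carry no genome build. Members and lists were chosen with earlier results of these data known. Named probe sets were KPNA7, the 12 smallest p, the brightest and most different of each role group, and all importin alpha and Ran cycle probe sets; of the related list, the 4 smallest p. The genes IPO11, TNPO3, SEC13, CSE1L and others outside this rule are given to account for every member. Alternatives changed the constant, the filter, the scaling or the variance model, weighted the arrays, used the replicate number as a block, or left out an array.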

Additional observations from a re-analysis of the deposited data

How the results depend on the processing

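The number of member probe sets past the threshold, 0 of 45 in the reported limma fit (7 at an unadjusted p under 0.05), was 1 with a constant of 64, 1 with the filter at the 75th percentile, and 2 with array weights, where 0.542%, 2.88% and 10.5% of all tested probe sets passed; RANBP1 passed in each and NUP133 with array weights. It ran from 0 to 2 with each array left out as deposited, and from 0 to 1 after quantile normalization. The related list, 0 of 23 (1 at an unadjusted p under 0.05), gave 1 with array weights, LMNB1. Over all probe sets the count was 57. It was 15 with a constant of 1, 1 without a filter, 173 with the filter at the 75th percentile, 14 after quantile normalization, 20 after scaling to a common trimmed mean, 1 without a variance trend and 1259 with array weights. With each array left out it ran from 3 to 617 as deposited and was 195, 6, 3, 2, 0 and 4 after quantile normalization without prepubertal replicates 1 to 3 and adult replicates 1 to 3 in turn (930 at an unadjusted p under 0.05 where it was 0). The 617 came without prepubertal replicate 1. The member median, −0.18, was 0.0090 after quantile normalization and 0.028 after trimmed-mean scaling. With each array left out it ran from −0.28 to −0.15 as deposited. After quantile normalization it was 0.0088, −0.0059 and 0.020 without prepubertal replicate 1, 2 or 3, and −0.030, 0.042 and 0.021 without adult replicate 1, 2 or 3. The cause of these changes was not tested.

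With the replicate number as a block, 4 member probe sets passed (RANBP1, NUP133, RAE1 and NUP88, all with lower prepubertal values) and 1 of the related list (LMNB1), where 918 of all tested probe sets, 7.65%, passed. With quantile normalization and the block, 0 member probe sets (3 at an unadjusted p under 0.05) and 33 of all passed, and the member median was 0.0090. The labels name no shared litter or day, so whether same-numbered arrays are paired is not known. Deviations of same-numbered arrays correlated at 0.11, 0.06 and 0.03, and each array correlated best with its own number. Such correlations cannot decide whether the arrays are paired. Of 672 refits of single named probe sets, 544 kept direction and call, 117 changed sign with no call in either fit and 11 passed where the reported fit did not.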
